A study of Mus musculus with 6 samples.

Results

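The Krüppel-like factors (KLFs) other than Klf1 were examined as a set of 10 genes, Klf2, Klf3, Klf4, Klf6, Klf7, Klf9, Klf10, Klf11, Klf13 and Klf16, out of 17060 genes listed in the RNA-Seq tables. Each gene was found by its symbol, and all 10 had reads in each of the 6 cultures. The cultures were grown from lineage-negative bone marrow (BM) cells of WT mice, a fraction rich in stem and progenitor cells, in medium containing erythropoietin (EPO), in which such cells mature into erythroblasts. For 48 hours 3 cultures received the vehicle DMSO and 3 received NUP-17d at 10 μM, a compound developed against the pleckstrin-2 protein Plek2. The sex and age of the mice are not given in the sources used here, and nothing states that the 3 cultures of a group came from separate animals, so p-values measure the spread between these cultures.

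KLFs bind CACCC boxes and GC-rich DNA through zinc fingers at their C-terminus, and they differ in the N-terminal part that recruits coactivators or corepressors. Klf1 is the founding erythroid member, which drives globin and other red cell genes, and Klf3 is a repressor whose gene is switched on by Klf1 and which can occupy many of the same CACCC boxes. Klf2, Klf4, Klf6 and Klf7 are mostly described as activators, and Klf9, Klf10, Klf11, Klf13 and Klf16 share a short segment that binds the corepressor Sin3. Klf2 and Klf4 are best known in endothelial cells, lymphocytes and monocytes, and Klf10 and Klf11 as genes induced by TGF-β.

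Klf3 was the most abundant of the 10 transcripts with either treatment and fell by 31.0% with NUP-17d. Klf9, a transcript of low abundance that responds to glucocorticoid and thyroid hormones, fell by 13.4%, a change that rested on the fit used. None of the 10 rose past the threshold. The other 8 transcripts differed by between -0.13 and 0.21 on the log2 scale, and none of these differences passed an adjusted p of 0.05. Calls are from the quasi-likelihood test of edgeR over 12306 tested genes, with TMM scaling and Benjamini-Hochberg adjustment, and all 10 genes passed the filter on low counts.

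The depth was even, with 20278433 to 20419018 expected counts per DMSO culture and 20076409 to 20170197 per NUP-17d culture. Hemoglobin genes took 18.3% to 20.3% of the counts with DMSO and 11.8% to 13.1% with NUP-17d. The TMM factors, which adjust library totals for such differences in composition, were 0.887 to 0.930 with DMSO and 1.08 to 1.11 with NUP-17d. The labelled cell type is the erythroblast, and erythroid markers were the most abundant of the marker lists in every culture. All 12 of them, Klf1 and Gata1 included, were called lower (median log2 fold change -0.73), beside 18.9% of all tested genes. With library totals only, 10 of them were called lower, beside 5.34% of all. Their summed level was 218633 to 252567 TMM-normalized CPM (counts scaled to a common library size) with DMSO and 120746 to 135101 with NUP-17d. In these bulk samples fewer cells of a type and less RNA per cell cannot be told apart. Monocyte and granulocyte transcripts such as Lyz2 and Ngp were present in every culture, so the cultures were not purely erythroid.

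Klf3 (Entrez gene 16599, chromosome 5, 64803521 to 64832901 on GRCm38) had 278, 259.6 and 265 TMM-normalized CPM in DMSO cultures 1, 2 and 3, and 198, 172 and 184 in NUP-17d cultures 1, 2 and 3. The groups did not overlap, and the highest NUP-17d culture lay well below the lowest DMSO culture. The mean fell from 268 ± 9.68 to 185 ± 12.9 (SD, n = 3 cultures each), a log2 fold change of -0.54 (standard error 0.042, edgeR adjusted p = 7.59e-11). Among all tested genes, 3.84% had a log2 fold change as low as that of Klf3 or lower. The fall was smaller, -0.27, when libraries were scaled by their totals only, and it passed the threshold there too (edgeR adjusted p = 3.12e-06).

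Because the abundance of Klf3 relative to another gene of the same culture carries no library scaling, its counts were divided by those of each other KLF. In all 9 ratios every NUP-17d culture lay below every DMSO culture, with falls between 0.33 and 0.71 on the log2 scale. For each count of Klf6, an activator first described in the liver and placenta, there were 1.60 ± 0.094 counts of Klf3 with DMSO and 1.06 ± 0.078 with NUP-17d. For each count of Klf13 there were 1.86 ± 0.099 and 1.24 ± 0.0997 (SD over the 3 cultures of a group). These ratios describe the same fall seen above and were given no test of their own, since 3 cultures against 3 cannot go below p = 0.1 in an exact permutation test.

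Klf9 (Entrez gene 16601, chromosome 19, 23141226 to 23168129) had 18.5, 17.1 and 16.8 CPM in the DMSO cultures and 15.2, 14.3 and 15.8 in the NUP-17d cultures. All NUP-17d cultures lay below all DMSO cultures, with a gap between the groups narrower than the range within either. Its log2 fold change was -0.21 (standard error 0.069, edgeR adjusted p = 0.0203). The call was lost with DESeq2 (-0.21, adjusted p = 0.128), without DMSO culture 1 (edgeR adjusted p = 0.112) and without NUP-17d culture 2 (edgeR adjusted p = 0.0952), and with totals only the value was 0.059 (edgeR adjusted p = 0.452).

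These 2 falls among 10 genes make a share near that of all genes, since 18.9% of the tested genes were called lower, 16.4% higher and 35.3% in either direction. No KLF was called higher, and none was higher at an unadjusted p under 0.05 in edgeR or past an adjusted p of 0.05 in DESeq2, which called 1 of the 10 lower, against 9.62% of all genes higher and 15.0% lower with that tool. With no overlap between the groups there were 4 genes, Klf3, Klf9 and Klf11 lower and Klf6 higher, where 46.0% of all tested genes did not overlap, 23.2% downward and 22.8% upward. The median log2 fold change of the 10 genes was -0.062, and that of all tested genes was 0.014.

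**Figure D1:**
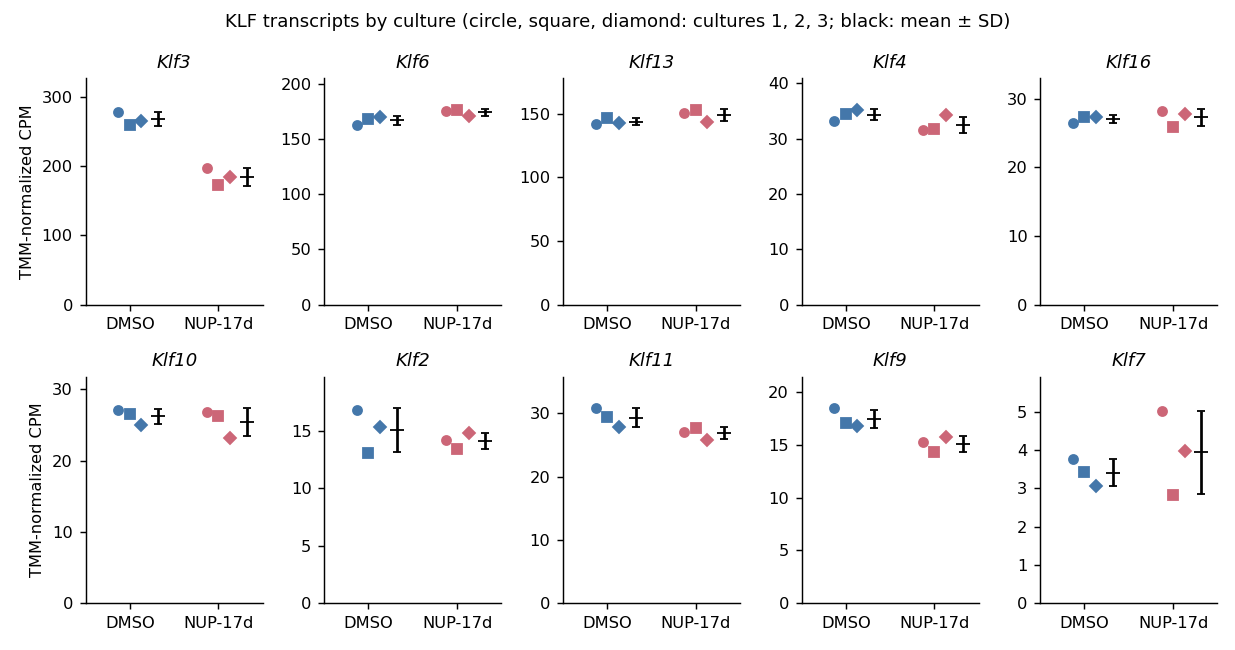
TMM-normalized CPM (vertical axes, linear from 0) of the 10 KLF transcripts in each DMSO culture (blue) and NUP-17d culture (red), with the group mean ± SD in black, ordered by FPKM in DMSO. Klf3 drops from 259.6 to 278 CPM with DMSO to 172 to 198 with NUP-17d, whereas most other panels show groups that overlap or nearly touch.

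Promoter sequences are shown for Klf3 and Klf9, the transcripts that fell, and for Klf13, an abundant transcript that did not pass the threshold, so that the sites KLFs are known to bind can be seen in each. They are from RefSeq (GRCm38.p6, the same assembly as mm10), run 5′ to 3′ on the strand of the gene, and end at the base before the first annotated transcript start. Capitals mark CACCC or its reverse complement GGGTG. The stretches are chr5:64803271-64803387 on the plus strand for Klf3, chr19:23140976-23141225 on the plus strand for Klf9 and chr7:63938916-63939165 on the minus strand for Klf13.
Klf3: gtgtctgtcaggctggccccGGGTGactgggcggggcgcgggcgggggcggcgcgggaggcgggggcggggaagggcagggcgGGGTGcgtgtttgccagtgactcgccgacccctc
Klf9: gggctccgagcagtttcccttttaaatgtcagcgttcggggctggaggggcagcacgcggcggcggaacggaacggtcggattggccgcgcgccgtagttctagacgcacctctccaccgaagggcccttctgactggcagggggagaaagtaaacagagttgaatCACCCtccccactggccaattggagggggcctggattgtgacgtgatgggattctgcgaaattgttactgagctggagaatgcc
Klf13: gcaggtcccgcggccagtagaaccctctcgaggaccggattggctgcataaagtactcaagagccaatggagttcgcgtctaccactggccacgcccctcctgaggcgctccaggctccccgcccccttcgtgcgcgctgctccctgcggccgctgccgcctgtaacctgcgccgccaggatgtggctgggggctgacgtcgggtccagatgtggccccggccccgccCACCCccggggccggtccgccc

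The table of promoters held 8 of the 10 genes (Klf10 and Klf16 were not matched). Motifs were counted on both strands in the whole window of 250 bases before and 50 after the start used there. For Klf7 that window (chromosome 1, 64121340 to 64121639, minus strand) lay inside the annotated gene, which ends at 64122345. The motif counts of Klf7 and its G and C content, the lowest of the 8, therefore do not describe its outermost start. CACCC occurred 5 times in the window of Klf3, 2 of them in the stretch printed above, and 1 of the 5 shared bases with a GC box, as did the single copy in Klf13. For Klf3 the 133 bases just before the start used there come after its first annotated start, so the other copies do not lie ahead of it. Of all 32851 promoters, 1.02% held at least 5 copies. That cut-off was taken from Klf3 itself. The promoters were not matched for G and C content, which was 76.7% in the window of Klf3. Klf7 held 3 copies, Klf2, Klf9 and Klf13 held 1 each, and Klf4, Klf6 and Klf11 held none, so 5 of 8 KLF promoters had the box, against 57.5% of all promoters. The GC box GGGCGG was in 7 of 8, against 35.7% of all, with Klf9 the exception. The windows were 58.3% to 77.7% G and C, against a median of 52.7% for all promoters. AGATAA, a form of the site that GATA factors bind, was in none of the 8 (11.2% of all promoters). Other forms of that site were not searched. The STAT motif TTCNNNGAA was in the window of Klf9 alone (8.30%). A match is a description of the letters and shows no binding.

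The order of the 10 transcripts was compared in FPKM, which divides counts by transcript length but carries no correction for composition. Klf3 led with 104 ± 1.10 FPKM with DMSO, followed by Klf6 at 35.5 ± 1.66, Klf13 at 20.1 ± 0.856 and Klf4 at 10.1 ± 0.518 (SD, n = 3 cultures). Klf16 (9.20), Klf10 (7.71), Klf2 (7.50), Klf11 (6.60), Klf9 (4.80) and Klf7 (2.32) came below in mean FPKM. The order was the same with NUP-17d, from Klf3 at 86.9 ± 6.05 FPKM to Klf7 at 3.23 ± 0.900. Neighbours whose culture ranges overlapped were Klf10 and Klf2 in both groups, Klf2 and Klf11 with DMSO, and Klf4 and Klf16 with NUP-17d. Klf1 stood above all of them, at 132 ± 2.54 FPKM with DMSO.

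In the summed FPKM of the 10 genes, Klf3 made up 50.1% ± 0.856 with DMSO and 40.9% ± 1.43 under NUP-17d (SD over 3 cultures). Its share was 51.1%, 49.4% and 49.9% in DMSO cultures 1, 2 and 3 and 42.1%, 39.3% and 41.1% in NUP-17d cultures 1, 2 and 3. The share of Klf6 went from 17.1% ± 0.692 to 21.1% ± 0.846, and that of Klf13 from 9.64% ± 0.351 to 11.8% ± 0.586. Shares must add to the whole, so a smaller share of Klf3 leaves larger ones for the rest. After division by the TMM factors the summed FPKM was 225 to 233 with DMSO and 188 to 201 with NUP-17d.

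**Figure D2:**
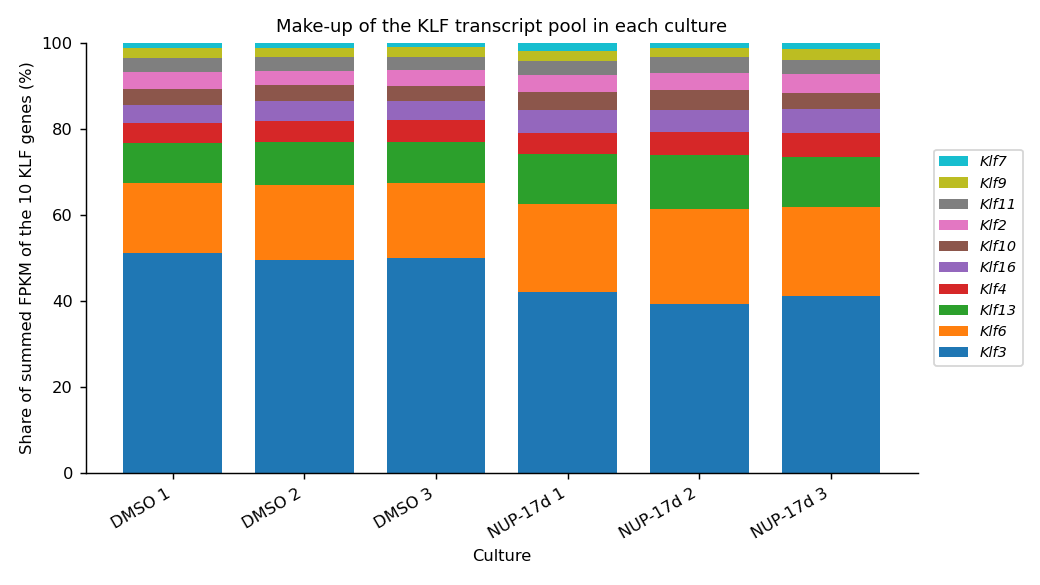
Share of each KLF gene in the summed FPKM of the 10 genes (vertical axis, percent) in each of the 6 cultures. The bottom segment, Klf3, covers 49.4% to 51.1% of the DMSO columns and 39.3% to 42.1% of the NUP-17d columns, and the Klf6 and Klf13 segments above it are wider with NUP-17d.

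Among the activators, Klf6 (Entrez gene 23849, chromosome 13, 5861489 to 5870393) had 163, 168 and 169.9 CPM with DMSO and 176, 177 and 171 with NUP-17d. The groups did not overlap but lay within a few percent of each other. Its log2 fold change was 0.063, with a 95% interval of -0.0092 to 0.14 (edgeR adjusted p = 0.171).

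Klf4 (Entrez gene 16600, chromosome 4, 55527137 to 55532475), a factor of monocyte differentiation and one of the reprogramming factors, had 33.3, 34.5 and 35.2 CPM with DMSO and 31.6, 31.8 and 34.2 with NUP-17d, and the groups overlapped (log2 fold change -0.079, 95% interval -0.18 to 0.027). Klf2 (Entrez gene 16598, chromosome 8, 72319062 to 72321654), which keeps naive T cells quiescent, had 16.8, 13.1 and 15.3 CPM with DMSO and 14.2, 13.4 and 14.8 with NUP-17d, with the wider spread among the DMSO cultures. Its log2 fold change was -0.091 (95% interval -0.26 to 0.076). Klf7 (Entrez gene 93691, chromosome 1, 64029448 to 64122345), best known in neurons, was the least abundant, with 57 to 111 counts per culture.

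For Klf7 the 3 NUP-17d cultures ranged from 2.82 to 5.02 CPM, a span that included the DMSO cultures at 3.06 to 3.76. The log2 fold change of 0.21 had a 95% interval of -0.16 to 0.57, so neither a rise of 48.6% nor a fall of 10.2% was outside what these counts allow. Without NUP-17d culture 1, the highest, the log2 fold change was -0.0050.

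Among the Sin3-binding repressors, Klf13 (Entrez gene 50794, chromosome 7, 63886351 to 63938915), a factor of T cell cytokine and globin gene expression, was the most abundant, with 142, 147 and 142 CPM with DMSO and 151, 153 and 143 with NUP-17d. NUP-17d culture 3 lay within the DMSO range. Its log2 fold change was 0.052 (95% interval -0.023 to 0.13, edgeR adjusted p = 0.284).

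Klf11 (Entrez gene 194655, chromosome 12, 24651371 to 24662782) had 30.8, 29.4 and 27.8 CPM with DMSO and 27.0, 27.7 and 25.9 with NUP-17d. All NUP-17d cultures were below all DMSO cultures, though the closest differed by very little. The log2 fold change was -0.13 (95% interval -0.24 to -0.013, edgeR adjusted p = 0.0777), and it passed the threshold without DMSO culture 3 (-0.17, edgeR adjusted p = 0.0420).

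Klf10 (Entrez gene 21847, chromosome 15, 38291464 to 38300711), the close relative of Klf11, had 27.1, 26.6 and 25.0 CPM with DMSO and 26.8, 26.3 and 23.1 with NUP-17d. The groups overlapped, and NUP-17d culture 3 was the lowest of the 6 (log2 fold change -0.044, 95% interval -0.17 to 0.082). Klf16 (Entrez gene 118445, chromosome 10, 80567121 to 80577296) had 26.4, 27.4 and 27.4 CPM with DMSO and 28.2, 25.9 and 27.8 with NUP-17d. Its log2 fold change was 0.012 (95% interval -0.10 to 0.13). Of the 8 genes without a call, Klf6 and Klf7 had the narrowest and the widest interval, reaching 0.072 and 0.36 on either side of the estimate.

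The sign of 5 of the 10 genes, Klf2, Klf4, Klf9, Klf10 and Klf11, depended on the scaling of the libraries. With totals only, 9 of the 10 log2 fold changes were above 0, 7 genes were called higher and Klf3 was called lower, while 68.7% of all tested genes were called higher and 5.34% lower. The median of all tested genes then moved by 0.27, from 0.014 to 0.28. Relative to that median, Klf3 stood at -0.55, Klf9 at -0.22 and Klf11 at -0.14 under both scalings, and the 3 genes above it, Klf6, Klf7 and Klf13, were above it under both. A change of scaling moves every gene by nearly the same amount. The standings relative to the median were therefore bound to be alike, and they do not show which scaling is right.

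**Figure D3:**
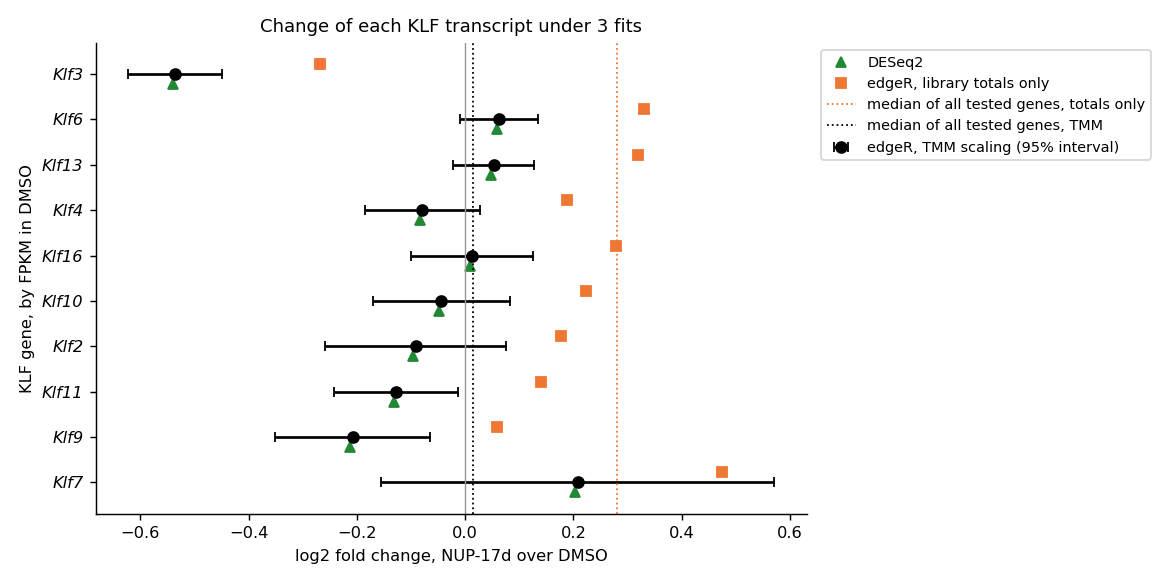
Log2 fold change (horizontal axis, NUP-17d over DMSO) of each KLF gene, with the edgeR estimate and its 95% interval under TMM scaling (black), DESeq2 (green triangles) and edgeR with library totals only (orange squares), beside the median of all tested genes in each edgeR fit (dotted lines). Klf3 lies left of 0 in all 3 fits, at -0.54, -0.54 and -0.27, and the orange points of the other 9 genes lie to the right of 0.

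Of the 7 other KLF genes on the list, Klf1 (Entrez gene 16596) had 233, 216 and 217 CPM with DMSO and 186, 181 and 197 with NUP-17d. It fell by 0.24 on the log2 scale (standard error 0.039, edgeR adjusted p = 2.10e-05), and with totals only the value was 0.028 (edgeR adjusted p = 0.495). For each count of Klf1 there were 1.20 ± 0.014 counts of Klf3 with DMSO and 0.982 ± 0.0703 under NUP-17d (SD over 3 cultures), with no overlap, and the difference between the 2 falls was not tested. Klf5 (log2 fold change 0.18, edgeR adjusted p = 0.330) and Klf8 (-0.097, edgeR adjusted p = 0.634), a gene that Klf3 is known to repress, did not pass the threshold. Klf12, Klf14, Klf15 and Klf17 had at most 5 counts in any culture and were not tested. Klf14, among these, had 0 counts in all DMSO cultures and 3, 5 and 1 in the NUP-17d cultures, too few for a fold.

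Gata1, the erythroid master regulator, was set beside Klf3 after its values were seen. Counts of Klf3 per count of Gata1 went from 1.08 ± 0.025 to 0.938 ± 0.057 (SD over 3 cultures), with every NUP-17d culture below every DMSO culture, and the difference between their falls was not tested. The erythroid marker list moved with Klf3, and the part of a changed cell make-up in its fall was not tested.

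The SP factors share the zinc fingers of the KLFs and bind the same GC-rich boxes. Of 9 SP genes, 5 were tested and 3 were called lower, where 18.9% of all tested genes were. They were Sp3 (log2 fold change -0.18, edgeR adjusted p = 0.000235), Sp1 (-0.12, edgeR adjusted p = 0.0131) and Sp2 (-0.12, edgeR adjusted p = 0.0273), and none was called higher (16.4% of all tested genes). At 0.085, 0.15 and 0.15 these 3 log2 fold changes were above 0 with totals only, and Sp1 and Sp2 were then called higher.

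Of 12 genes for proteins that KLFs recruit, 3 were called higher, 3 lower and 6 neither, with a median log2 fold change of 0.024 (all tested genes 16.4% higher and 18.9% lower, median 0.014). Ep300 and Crebbp, which encode the acetyltransferase coactivators p300 and CBP, fell by 0.28 and 0.27 on the log2 scale (edgeR adjusted p = 3.99e-06 and 8.02e-06), and with totals only their values were -0.0082 and -0.0029. Fhl3, a cofactor of Klf3, rose (0.41, edgeR adjusted p = 4.15e-05), as did Sin3b (0.19, edgeR adjusted p = 0.000891). The corepressor genes Ctbp1 and Ctbp2, chosen after their values were seen because Klf3 binds their products, had log2 fold changes of 0.029 and 0.072 and did not pass the threshold (edgeR adjusted p = 0.540 and 0.336).

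Among 16 genes that act upstream of KLFs, 9 were called higher and 1 lower, with a median log2 fold change of 0.16, beside 16.4% higher, 18.9% lower and a median of 0.014 for all tested genes. With totals only 14 were called higher and none lower, beside 68.7% and 5.34% of all. Tgfbr1 (0.39, edgeR adjusted p = 3.99e-06) and Tgfbr2 (0.29, edgeR adjusted p = 0.000167), the receptors of TGF-β, rose, as did Mef2a (0.19, edgeR adjusted p = 0.000362), a factor that activates Klf2 and Klf4. Gata1 was the gene that fell (-0.33, edgeR adjusted p = 1.65e-08), and with totals only its value was -0.067 (edgeR adjusted p = 0.0842).

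Among 17 genes reported in other cells as targets of KLFs, 16 were tested, of which 6 were called higher and 1 lower, with a median log2 fold change of 0.053, beside 16.4% higher, 18.9% lower and a median of 0.014 for all tested genes. Lgals3, which encodes galectin-3 and is repressed by Klf3 in other cells, had 442, 461 and 471 CPM with DMSO and 537, 631 and 546 with NUP-17d. Its groups did not overlap, and it rose by 0.32 on the log2 scale (standard error 0.046, edgeR adjusted p = 3.43e-06). Lgals3 is also abundant in macrophages, and of the 11 monocyte and macrophage markers 3 were called higher, 4 lower and 4 neither (16.4% and 18.9% of all tested genes were higher and lower), with a summed level of 3950 to 4258 CPM with DMSO and 4393 to 4774 with NUP-17d. The part of these cells in the rise was not tested. C1qtnf12, the adipokine gene formerly named Fam132a and another gene that Klf3 represses, was named after its values were seen and did not pass the threshold (0.18, edgeR adjusted p = 0.198). Smad7, an inhibitor of TGF-β signaling, rose (0.39, edgeR adjusted p = 0.000155). Itgb7, which Klf2 regulates in T cells, fell (-0.26, edgeR adjusted p = 1.30e-05), with a value of 0.011 with totals only.

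**Figure D4:**
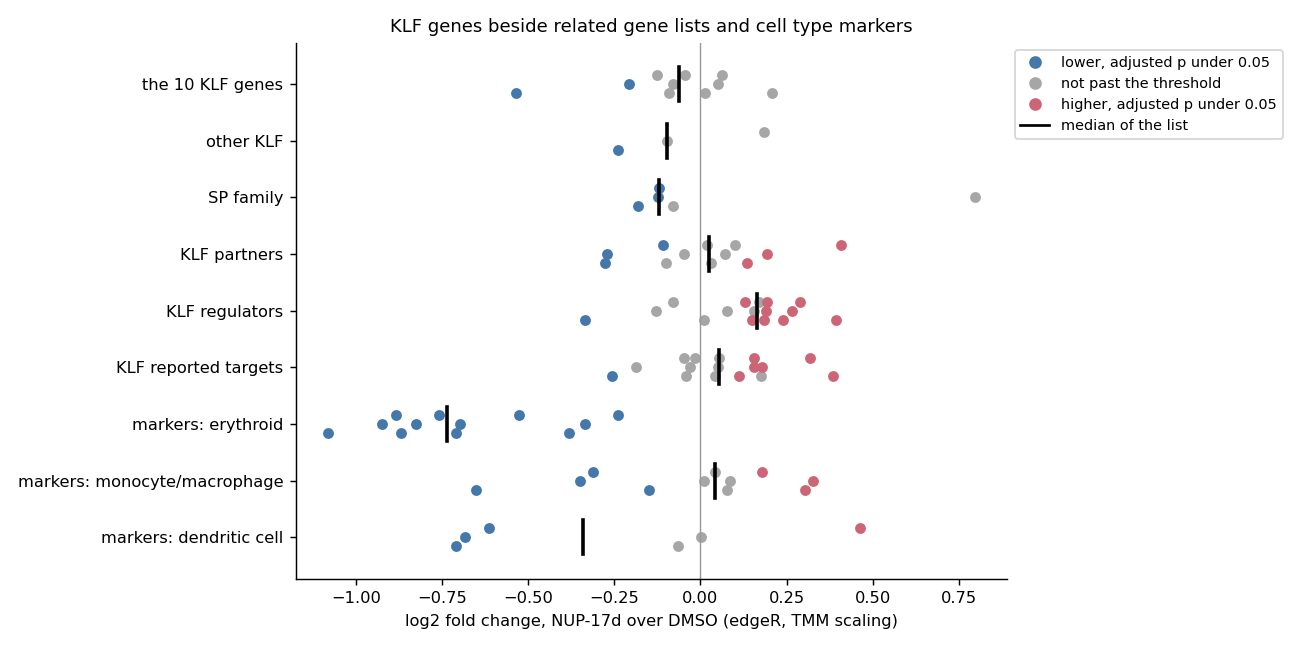
Log2 fold change (horizontal axis, edgeR with TMM scaling) of the tested genes of each list, as points colored by direction where the adjusted p was under 0.05 and gray otherwise, with the list median as a black bar. The 10 KLF genes center on -0.062 with Klf3 at -0.54 apart from the rest, the erythroid markers center on -0.73, and the regulator list on 0.16.

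The 3 genes whose log2 CPM followed that of Klf3 most closely over the 6 cultures, among the 9763 genes averaging 100 counts or more, were Grap2 (Pearson r = 0.9993), Smc4 (0.9991) and Trove2 (0.9983). All 6 points share the split into treatments, so any gene that fell evenly scores high, and no p is given. Grap2, an adaptor of T cell and platelet signaling, fell by 0.47 on the log2 scale, and Smc4, a condensin subunit, fell by 0.22.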

How the data were processed

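The authors deposited 1 table per culture, with an expected count (an estimate of the reads of a gene, which need not be whole), an FPKM value and a transcript length for each gene with reads; absent genes were taken as 0. The build in the submitters' processing notes is mm10; the aligner and counting program are not given in the sources used here. The study's methods name a stranded Illumina kit, whereas the labels describe random priming and a DNBseq instrument. Of the 10 KLF genes, 3 had counts that were not whole, so reads may be shared with other genes.

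Expected counts were rounded and fitted with edgeR 4.0.16 in R 4.3.3 (filterByExpr, TMM, glmQLFit, glmQLFTest), p-values being adjusted by Benjamini-Hochberg across every gene tested, at a threshold of 0.05. Intervals are 95% intervals from the unshrunk coefficient and its standard error, the coefficient divided by the square root of F. Alternatives were DESeq2 1.42.0, library totals only, no filter, removal of hemoglobin genes, limma 3.58.1 with a pseudocount of 1 or 0.1 added to FPKM before taking log2 (genes averaging 1 FPKM or more), the culture number as a block, and each culture left out. The fits were tested on simulated data. Of 100 genes changed by 0.5 on the log2 scale, edgeR recovered 83, DESeq2 74 and limma with a pseudocount of 1 recovered 78. The simulated counts had the same dispersion for every gene and no shift in composition, so they cannot decide between TMM and library totals. Cultures of a group differed by more than sampling noise (chi-square per degree of freedom 1.83 to 4.54).

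The KLF genes and the gene lists were chosen with earlier results of these data known. All 10 KLF genes are named, and of the other lists at most 4 genes each with the lowest p, besides Klf1, the 3 genes whose log2(CPM + 1) had the highest Pearson correlation with Klf3, and genes said to have been chosen after their values were seen. List symbols were matched to the files by symbol or, for Fam132a and Bmal1, by synonym. Marker lists covered erythroid, monocyte and macrophage, neutrophil, mast cell and basophil, megakaryocyte, T cell, B cell, dendritic, endothelial, and stem and progenitor cells. Results for 2 list genes are not reported here.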

Additional observations from a re-analysis of the deposited data

How the results depend on the processing

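Klf3 was called lower under all 13 alternatives, with log2 fold changes from -0.59 to -0.26. The culture number as a block (replicate block) changed no call of a KLF gene. With the block Klf3 was at -0.54 and Klf9 at -0.21 on the log2 scale. Same-numbered cultures barely deviated together (correlations 0.0046 to 0.066), so the numbers were not taken to pair them. Of the 10 genes, 0 were called higher and 1 to 3 lower with a culture left out, among 3713 to 4008 genes called in all (1642 to 1827 higher, 2035 to 2181 lower). The lower calls were 1 without DMSO culture 1, 1 without NUP-17d culture 2, and 1 with DESeq2, which called 1161 of all genes higher.

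With library totals only, limma on log2(FPKM + 1) and limma on log2(FPKM + 0.1), in that order, 7, 7 and 7 KLF genes were called higher and 1, 1 and 1 lower, among 9115, 8494 and 8480 genes called in all (8458, 7895 and 7880 higher, 657, 599 and 600 lower). The log2 fold changes that turned from below to above 0 were then 0.18, 0.16 and 0.18 for Klf2, 0.19, 0.18 and 0.19 for Klf4, 0.059, 0.053 and 0.063 for Klf9, 0.22, 0.20 and 0.22 for Klf10, 0.14, 0.13 and 0.14 for Klf11, and 0.028, 0.031 and 0.031 for Klf1. These 3 settings leave out the correction for composition that TMM makes. With totals only the genes called higher and lower were 1 and 0 among the other KLFs, 4 and 0 among SP factors, 10 and 0 among partners, 14 and 0 among regulators and 12 and 0 among reported targets.

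Leaving out a culture turned the sign of Klf7 without NUP-17d culture 1 (-0.0050), Klf10 without NUP-17d culture 3 (0.017) and Klf16 without DMSO culture 1 (-0.0047), NUP-17d culture 1 (-0.012) or NUP-17d culture 3 (-0.0017). Over the 6 fits Klf7 ranged from -0.0050 to 0.40, Klf10 from -0.084 to 0.017 and Klf16 from -0.012 to 0.050. At 57 to 111 counts per culture, Klf7 is the gene whose change depth limits most.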

Other observations

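Markers of other blood cells were measured in the same cultures, and their calls stand beside 16.4% of all tested genes called higher and 18.9% lower. The megakaryocyte markers had 5 of 7 genes called higher and none lower (edgeR adjusted p under 0.05), among them Itgb3 (log2 fold change 0.32) and Pf4 (0.17), and their summed level was 440 to 481 CPM with DMSO and 509 to 536 with NUP-17d. With library totals only all 7 were called higher, as were 68.7% of all tested genes. Of 7 stem and progenitor markers, 6 were tested and 4 were called higher (6 with totals only), among them Kit (0.19), with 314 to 323 and 338 to 349 CPM in sum. Among the dendritic cell markers, 3 of 6 were called lower, the MHC class II genes H2-Ab1 (-0.71), Cd74 (-0.61) and H2-Aa (-0.68), and Siglech was called higher (0.46).

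Neutrophil markers held 1 gene called higher and 1 lower of 9, Ngp (0.17) and Camp (-0.17), with 3754 to 3917 CPM in sum with DMSO and 3817 to 4075 with NUP-17d. Of the mast cell and basophil markers, 5 of 7 were tested, with Prss34 (-0.30) and Mcpt8 (-0.39) called lower and Cpa3 (0.13) called higher. Of the endothelial markers, Tek (0.99) and Vwf (0.21) were called higher among 4 tested, and Cdh5 had at most 10 counts in a culture. Lymphocyte markers were scarce. T cell markers summed to at most 4.93 CPM in any culture with no call among 4 tested, and B cell markers to at most 16.1 CPM with 2 of 5 called lower. The part of these cells in the values of the KLF genes was not tested.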
